A study of Mus musculus with 12 samples.

Results

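The collagen chain genes of mouse embryonic fibroblasts (MEFs) were followed across a knockout of 2 transcription factor genes and a DNA damage treatment. They were chosen by symbol alone, as every gene whose name is Col, a number, the letter a and a second number, which took 44 of the 24421 genes in the table. RNA-Seq had been done on 12 libraries, 3 in each of 4 groups. The study asked how the transcription factors TFEB and TFE3 act in the response to genotoxic stress.

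The 4 groups were Null MEFs without etoposide, TFEB/TFE3 DKO MEFs without etoposide, Null MEFs after 8 hr in 100 µM etoposide, and TFEB/TFE3 DKO MEFs after the same treatment. Null is the labels' name for the other MEF genotype, taken here as the control; the study's text calls its control MEFs WT. In DKO MEFs both Tfeb and Tfe3 had been targeted by CRISPR, and each genotype was 1 immortalized line, so differences between the genotypes and differences between 2 lines cannot be told apart. Etoposide is a topoisomerase II poison that leaves breaks in DNA. The sample titles say Control, the submitters' treatment notes say untreated and the methods describe a DMSO control. Untreated is the word used here. These sources do not say that the 3 libraries of a group came from separate cultures, so p-values measure the spread between these libraries, which may be technical.

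Collagens are extracellular proteins in which 3 chains wind into a triple helix, each chain encoded by its own gene. Fibrillar collagens form the banded fibrils of connective tissue, collagen IV the mesh of basement membranes and collagen VI beaded filaments, while fibril-associated collagens (FACIT), short-chain network, transmembrane, multiplexin and anchoring fibril collagens have more restricted places. Fibroblasts are the main makers of fibrillar collagen in most tissues, and the chains are hydroxylated and folded in the endoplasmic reticulum before secretion, trimming and cross-linking.

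Each library held between 45577023 and 104120871 counts on genes, and the group medians were 67654759 in untreated Null MEFs, 74826945 in untreated DKO MEFs, 75454495 in Null MEFs after etoposide and 68441372 in DKO MEFs after etoposide. Levels are given as CPM, counts relative to library size, after TMM scaling. Tfeb stood at 38.9, 39.2 and 42.1 CPM in untreated Null MEFs and at 4.60, 6.09 and 4.68 CPM in untreated DKO MEFs, and at 11.4, 10.2 and 10.4 CPM in Null MEFs and 1.92, 1.61 and 2.20 CPM in DKO MEFs after etoposide. Tfeb RNA was lower in every DKO library than in any Null library of the same treatment, by 2.94 on the log2 scale without etoposide (SE 0.092, edgeR quasi-likelihood test with Benjamini-Hochberg adjustment, adjusted p = 1.05e-14). Tfe3 RNA was present in DKO MEFs, at a mean of 92.7 CPM without etoposide against 113 CPM in Null MEFs. After etoposide Tfe3 was at 68.5, 69.6 and 68.1 CPM in Null MEFs and 70.7, 71.2 and 63.4 CPM in DKO MEFs, with overlap. Gene counts do not show whether a transcript carries an edit.

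Most markers of fibroblasts, but not all, were present in all groups. Fap was at or under 0.323 CPM in every library. The 10 fibroblast markers, all of which passed the filter on low counts, summed to 3362 ± 41.9 CPM (SD, n = 3) in untreated Null MEFs, 4642 ± 74.9 in untreated DKO MEFs, 2083 ± 29.2 in Null MEFs after etoposide and 1563 ± 15.8 in DKO MEFs after etoposide, with Vim the most abundant. The list did not move as one. After etoposide Vim was at 1609, 1642 and 1643 CPM in Null MEFs against 807, 790 and 806.5 CPM in DKO MEFs. Pdgfra was then at 11.4, 9.15 and 9.48 CPM in Null MEFs against 46.8, 44.3 and 47.9 CPM in DKO MEFs. Thy1, a fibroblast surface marker, was at 4.21 CPM in untreated Null MEFs and 0.0365 CPM in untreated DKO MEFs. The 6 smooth muscle or pericyte markers, led by Acta2, summed to 871.5 ± 25.0, 2252 ± 38.6, 565 ± 20.99 and 1317 ± 25.7 CPM in the same order of groups. Acta2 and Tagln made up most of this sum, and both had the order of groups of the collagen share given next; their part in the collagen results was not tested. Other members of the list differed: Cnn1 was at 17.9, 16.3 and 19.1 CPM in untreated Null MEFs against 0.857, 0.902 and 1.12 CPM in untreated DKO MEFs, Des was at 2.24, 2.01 and 2.085 CPM in untreated Null MEFs against 33.2, 37.5 and 38.2 CPM after etoposide, and Myh11 was at or under 0.302 CPM in every untreated library and at 0.688 to 1.95 CPM in treated ones. The 7 osteoblast markers, of which 5 passed and Runx2 was the most abundant, summed to 62.0 ± 4.45, 76.0 ± 1.165, 14.8 ± 0.633 and 14.1 ± 1.38 CPM. Runx2 made up most of it, at 55.6, 63.7 and 63.0 CPM in untreated Null MEFs and 8.76, 9.13 and 9.23 CPM after etoposide, while Alpl was at 0.713, 0.722 and 0.710 CPM and then at 4.36, 2.88 and 3.94 CPM, and Sp7 at or under 0.0369 CPM and then at 1.17 to 1.33 CPM, so the list did not move as one. The 5 blood markers, of which 3 passed, led by Cd68, summed to 1.70, 1.57, 13.2 and 3.52 CPM, and the 6 endothelial markers to 0.130, 0.133, 2.73 and 1.21 CPM.

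Collagen genes together took 0.597, 0.577 and 0.612% of the counts on genes in untreated Null MEFs and 1.33, 1.35 and 1.35% in untreated DKO MEFs. After etoposide they took 0.334, 0.323 and 0.323% in Null MEFs and 0.755, 0.731 and 0.733% in DKO MEFs. The 4 groups did not overlap. The share was 2.25-fold higher in DKO than in Null MEFs without etoposide and 2.26-fold higher after it, and it was 1.82-fold higher without etoposide than after it in Null MEFs and 1.81-fold in DKO MEFs. These are shares of raw counts, without TMM scaling, and the folds would differ with it. The TMM factors ran from 0.884 in an untreated DKO library to 1.09 in a treated Null library. The share of read pairs on no annotated feature was in the reverse order of groups, also without overlap: 20.2 to 21.1% in untreated DKO MEFs, 21.2 to 22.3% in treated DKO MEFs, 22.5 to 24.2% in untreated Null MEFs and 25.1 to 27.3% in treated Null MEFs. Its part in the collagen share was not tested. In such bulk RNA, fewer cells making collagen and less collagen RNA per cell cannot be told apart.

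**Figure D1:**
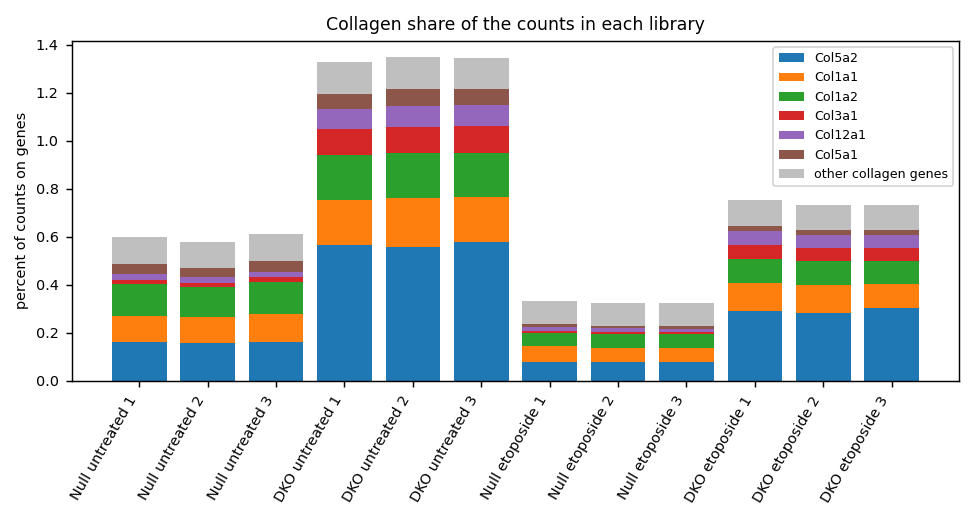
Stacked bars show the percent of counts on genes taken by collagen genes in each of the 12 libraries, with 6 abundant genes in color and the others in grey. The bars reach 1.33 to 1.35% in untreated DKO MEFs and 0.323 to 0.334% in Null MEFs after etoposide.

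A single gene, Col5a2, which encodes a chain of the fibril-nucleating collagen V, made up 26.7 ± 0.200% of collagen counts (SD, n = 3) in untreated Null MEFs and 42.2 ± 0.772% in untreated DKO MEFs, and 23.95 ± 0.464% and 39.4 ± 1.64% after etoposide. Without Col5a2 the collagen share of counts was still 1.78-fold higher in DKO MEFs without etoposide and 1.80-fold higher after it. Per kb of exon the order of the collagen genes differed between the groups. In untreated Null MEFs Col1a1 was at 178, Col5a2 at 172, Col1a2 at 108, Col6a1 at 67.2, Col5a1 at 48.8 and Col3a1 at 19.8 CPM per kb. In untreated DKO MEFs Col5a2 was at 665, Col1a1 at 331, Col1a2 at 169, Col3a1 at 125, Col6a1 at 90.4 and Col5a1 at 87.2 CPM per kb. After etoposide Col1a1 and Col5a2 were at 85.5 and 75.2 CPM per kb in Null MEFs and at 159.6 and 283 in DKO MEFs. The order also depended on the length used: divided by the longest transcript instead of all exons, Col1a2 was at 250.4, Col5a2 at 248.7 and Col1a1 at 197.5 CPM per kb in untreated Null MEFs.

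Of the 44 genes, 40 passed the filter on low counts and were tested among 15220 genes. Col13a1, Col19a1, Col22a1 and Col9a1 did not pass. Of the 40, 26 averaged 1 CPM or more across the 12 libraries and 14 averaged less. A low gene could pass through the single group in which it was high, so the counts below describe the genes tested and not all 44.

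**Figure D2:**
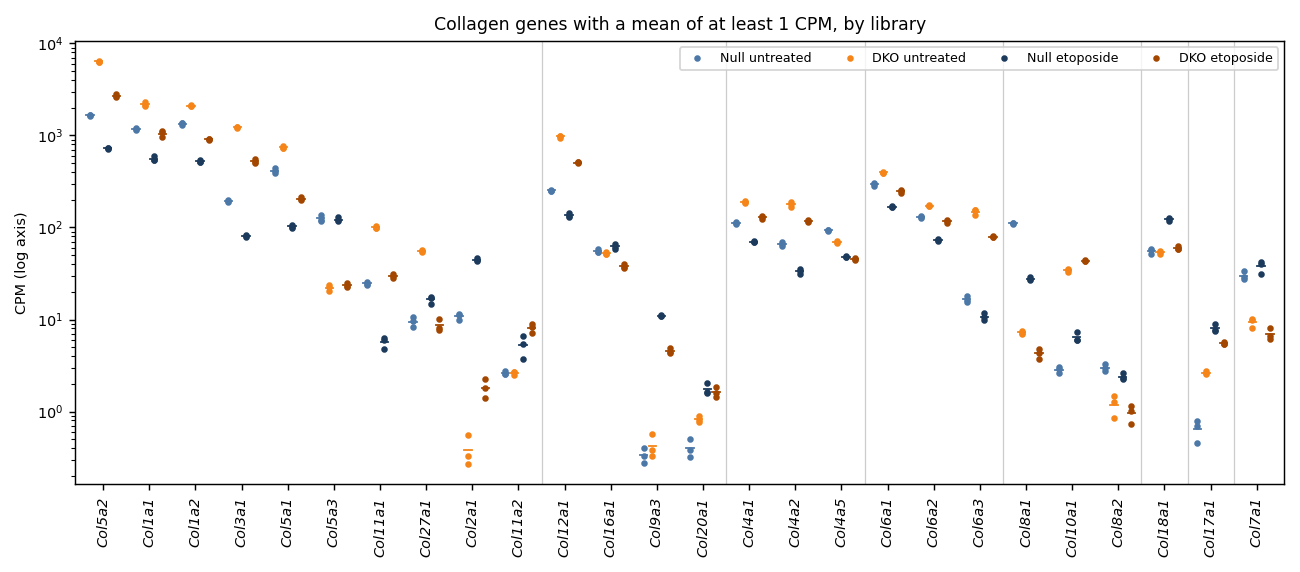
Points show the CPM of the 26 collagen genes averaging 1 CPM or more in each library, on a log axis, with a bar at each group's mean; grey lines part the classes. Col5a2 runs from 713.7 to 6453 CPM, and the 3 libraries of a group lie close together for most genes.

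With etoposide in Null MEFs, 21 of the 40 collagen genes were higher and 14 lower at an adjusted p under 0.05, where 42.3% of all genes tested were higher and 37.2% lower. Among the 26 that averaged 1 CPM or more, 10 were higher (38.5%) and 14 lower (53.85%), beside 36.3 and 45.85% of the 11999 genes of that abundance, and their median log2 fold change was -0.65 against -0.076. In DKO MEFs 19 were higher and 18 lower, where 43.7% of all genes were higher and 31.5% lower, and among the 26 it was 7 higher (26.9%) and 17 lower (65.4%), beside 40.1 and 38.6% at that abundance, with a median of -0.58 against 0.024. Of the 26, 14 were lower with etoposide in both genotypes and 7 higher in both, in comparisons that share no library. The share of all genes called the same way in both genotypes was not counted, so these counts have no background beside them. Scaling by library size alone moved the median of all genes up by 0.17 in Null MEFs and 0.27 in DKO MEFs on the log2 scale, and the share of higher among all calls from 53.2 to 64.0% and from 58.1 to 75.6%. No collagen gene past the threshold turned its direction under any alternative tried.

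Between the genotypes without etoposide, 19 of the 40 were higher in DKO MEFs and 10 lower, where 33.3% of all genes were higher and 33.4% lower. Among the 26, 16 were higher (61.5%) and 6 lower (23.1%), beside 39.5 and 36.2% of all genes of that abundance, with a median of 0.70 against 0.0081. After etoposide 16 were higher and 16 lower, where 37.5% of all genes were higher and 36.6% lower, and among the 26 it was 14 higher (53.85%) and 10 lower (38.5%), beside 45.5 and 34.8%, with a median of 0.58 against 0.077. Of the 26, 13 were higher and 5 lower in DKO MEFs in both treatments. How many of all genes were called the same way in both treatments was not counted, so these counts too have no background. Library size alone moved the median of all genes down by 0.12 without etoposide, and the share of higher among all calls from 49.9 to 38.4%.

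Fibrillar collagens were the most abundant class, at 0.477 ± 0.0142% of counts (SD, n = 3) in untreated Null MEFs and 1.14 ± 0.00732% in untreated DKO MEFs. Of the 11 genes, all tested, 4 were higher (36.4%) and 6 lower (54.5%) with etoposide in Null MEFs, and 3 higher (27.3%) and 7 lower (63.6%) in DKO MEFs. All but Col24a1 averaged 1 CPM or more, and of all genes of that abundance 36.3% were higher and 45.85% lower in Null MEFs and 40.1 and 38.6% in DKO MEFs. Without etoposide 7 were higher (63.6%) and 2 lower (18.2%) in DKO than in Null MEFs, beside 39.5 and 36.2% at that abundance, and after it 8 (72.7%) and 3 (27.3%), beside 45.5 and 34.8%. Col24a1, with 2, 5, 70 and 132 counts in untreated Null, untreated DKO, treated Null and treated DKO MEFs, could pass the filter only through the treated groups. It is among the genes called higher with etoposide in both genotypes, which the shares at that abundance do not cover. It is also 1 of the 8 higher in treated DKO MEFs, a call lost with DESeq2 (adjusted p = 0.17) and limma-trend (adjusted p = 0.116).

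Col1a1, which encodes the chain present as a pair in collagen I, stood at 1155, 1163 and 1195 CPM in untreated Null MEFs and 2135, 2290 and 2100 CPM in untreated DKO MEFs. After etoposide it was at 591, 545 and 547 CPM in Null MEFs and 1079, 1108 and 953.9 CPM in DKO MEFs. Untreated DKO libraries were the highest and Null libraries after etoposide the lowest; the treated DKO libraries came close to the untreated Null ones without reaching them. Col1a1 fell by 1.06 on the log2 scale with etoposide in Null MEFs (SE 0.051, edgeR quasi-likelihood test, adjusted p = 2.22e-12) and by 1.05 in DKO MEFs (adjusted p = 3.82e-12), and the interaction of genotype and etoposide was 0.0068 (SE 0.071, adjusted p = 0.959). Col1a2, the partner chain, was at 1348, 1289 and 1380 CPM in untreated Null MEFs, 2098, 2146 and 2071 CPM in untreated DKO MEFs, 520, 518.5 and 536 CPM in Null MEFs after etoposide and 919, 923 and 891 CPM in DKO MEFs after etoposide. It was in the same order of groups as Col1a1, without overlap. Per kb of exon, the ratio of Col1a1 to Col1a2 was 1.66 ± 0.0456 (SD, n = 3) in untreated Null MEFs, 1.96 ± 0.0558 in untreated DKO MEFs, 2.02 ± 0.113 in Null MEFs and 2.17 ± 0.130 in DKO MEFs after etoposide; with the longest transcript as length it lay between 0.789 and 1.04.

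The window around the start of Col1a2 is shown as the promoter of an abundant chain that moved with genotype and treatment, and that of Col3a1 as one that differed more between the genotypes. Promoter windows, from RefSeq on GRCm38.p6, run from 250 bases before to 50 after the start and were held for 35 of the 44 genes, in 38 windows. Capitals mark matches on either strand to the motif CCAAT, to the motif TATAAA or to the motif GGGCGG, and the motif CACGTG was searched as well. Col1a2 lies at chr6:4505368-4505667 on the plus strand and Col3a1 at chr1:45311288-45311587 on the plus strand.
Col1a2: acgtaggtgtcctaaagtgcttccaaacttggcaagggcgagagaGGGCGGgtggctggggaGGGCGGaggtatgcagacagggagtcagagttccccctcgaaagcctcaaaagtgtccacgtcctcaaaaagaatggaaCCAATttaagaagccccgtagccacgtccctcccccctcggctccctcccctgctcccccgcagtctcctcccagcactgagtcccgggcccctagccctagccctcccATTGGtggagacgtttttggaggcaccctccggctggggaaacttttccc
Col3a1: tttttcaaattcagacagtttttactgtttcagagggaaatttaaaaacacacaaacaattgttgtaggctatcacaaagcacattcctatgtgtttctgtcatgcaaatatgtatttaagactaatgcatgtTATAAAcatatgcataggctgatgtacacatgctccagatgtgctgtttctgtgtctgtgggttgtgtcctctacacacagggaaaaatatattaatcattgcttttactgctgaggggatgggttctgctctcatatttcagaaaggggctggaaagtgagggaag
CACGTG, the core of the E-box that TFEB and TFE3 are known to bind, was in 0 of the 38 collagen windows and in 7.15% of 32851 windows of all genes. CCAAT was in 13 of the 38 windows (34.2%) against 37.4% of all, TATAAA in 5 (13.2%) against 13.6%, and GGGCGG in 23 (60.5%) against 35.7%. These letters say nothing of binding outside or inside the windows.

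Col3a1, which encodes the chain of collagen III, was at 196, 188 and 198.5 CPM in untreated Null MEFs and 1219, 1226 and 1248 CPM in untreated DKO MEFs. After etoposide it was at 77.9, 82.9 and 81.7 CPM in Null MEFs and 552, 505 and 518 CPM in DKO MEFs. Every DKO library was above every Null library, treated or not. The difference between the genotypes was 2.67 on the log2 scale without etoposide (SE 0.039, edgeR quasi-likelihood test, adjusted p = 1.02e-18) and 2.70 after it (SE 0.040, adjusted p = 1.67e-18). Col5a2, its neighbour on chromosome 1, ends 24614 bases away on the other strand, tail to tail. Col5a2 was at 1649, 1615 and 1680 CPM in untreated Null MEFs, 6356, 6319 and 6453 CPM in untreated DKO MEFs, 723, 727 and 713.7 CPM in Null MEFs after etoposide and 2679, 2626 and 2838 CPM in DKO MEFs after etoposide. As for Col3a1, every DKO library was above every Null library, by 1.95 on the log2 scale without etoposide and 1.91 after it, and etoposide lowered it by 1.19 in Null MEFs and 1.23 in DKO MEFs.

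The 3 chains of collagen V did not share a pattern. Col5a1 was at 407, 395 and 441.5 CPM in untreated Null MEFs, 728, 768 and 726 CPM in untreated DKO MEFs, 107, 98.5 and 102 CPM in Null MEFs after etoposide and 215, 206 and 199 CPM in DKO MEFs after etoposide. It had the second strongest fall with etoposide in Null MEFs among the 26 genes, -2.02 on the log2 scale (SE 0.046, edgeR quasi-likelihood test, adjusted p = 1.09e-16), after Col11a1 at -2.11. Col5a3 was at 120, 117.5 and 138 CPM in untreated Null MEFs, 20.6, 22.3 and 23.6 CPM in untreated DKO MEFs, 129, 119 and 116 CPM in Null MEFs after etoposide and 25.0, 22.6 and 22.9 CPM in DKO MEFs after etoposide. Col5a3 libraries fell into separate ranges by genotype and overlapped by treatment: it was lower in DKO MEFs by 2.50 on the log2 scale without etoposide (SE 0.066, edgeR quasi-likelihood test, adjusted p = 1.23e-15), and its log2 fold change with etoposide was -0.045 in Null MEFs (adjusted p = 0.495) and 0.079 in DKO MEFs (adjusted p = 0.309), the latter 0.35 (adjusted p = 0.000252) with library size alone. Per kb of exon, the ratio of Col5a3 to Col5a1 went from 0.376 ± 0.0119 (SD, n = 3) to 1.48 ± 0.0490 with etoposide in Null MEFs, and from 0.0373 ± 0.00276 to 0.142 ± 0.00440 in DKO MEFs.

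Col11a1 and Col11a2 encode chains of collagen XI, a partner of collagen II in cartilage fibrils. Col11a1 was at 25.6, 23.9 and 24.5 CPM in untreated Null MEFs, 98.9, 98.7 and 103 CPM in untreated DKO MEFs, 6.02, 6.25 and 4.78 CPM in Null MEFs after etoposide and 31.3, 27.9 and 29.9 CPM in DKO MEFs after etoposide. The 4 groups did not overlap, and the gene fell by 2.11 and 1.76 on the log2 scale with etoposide in Null and DKO MEFs. Col11a2 went the other way, from 2.73, 2.54 and 2.58 CPM to 6.58, 5.399 and 3.70 CPM in Null MEFs and from 2.72, 2.47 and 2.70 CPM to 8.90, 7.07 and 8.29 CPM in DKO MEFs. Its rise was 1.01 on the log2 scale in Null MEFs (SE 0.17, edgeR quasi-likelihood test, adjusted p = 3.92e-05) and 1.62 in DKO MEFs (SE 0.16, adjusted p = 8.16e-08).

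Col2a1, the gene of the cartilage collagen II, was at 11.3, 9.85 and 11.3 CPM in untreated Null MEFs and at 0.331, 0.554 and 0.268 CPM in untreated DKO MEFs. After etoposide it was at 46.1, 43.3 and 44.7 CPM in Null MEFs and 2.25, 1.80 and 1.40 CPM in DKO MEFs. It was the collagen gene of at least 1 CPM that was furthest below Null MEFs in DKO MEFs, by 4.73 on the log2 scale without etoposide (SE 0.17, edgeR quasi-likelihood test, adjusted p = 6.47e-14) and 4.69 after it, while etoposide raised it by 2.05 in Null MEFs and 2.09 in DKO MEFs. The 8 chondrocyte markers in the table, led by Sox9, summed to 39.5, 41.3, 24.8 and 15.5 CPM in the 4 groups (untreated Null and DKO, then treated Null and DKO). They did not move as one: without etoposide Sox9 was at 30.3, 29.8 and 27.8 CPM in Null MEFs against 19.7, 20.5 and 20.7 CPM in DKO MEFs, and Sox5 at 0.221, 0.261 and 0.602 against 3.35, 4.78 and 4.345 CPM. Matn1 was at 0.0614, 0 and 0 CPM in untreated Null MEFs and 2.33, 2.55 and 2.87 CPM after etoposide. Their part in the Col2a1 result was not tested.

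Col27a1, which encodes a fibrillar collagen of cartilage, was called higher with etoposide in Null MEFs and lower in DKO MEFs. Among the 26, Col16a1 and Col7a1 were called the same way. The share of all genes with such opposite calls was not counted. Col27a1 was at 9.68, 8.19 and 10.5 CPM in untreated Null MEFs, 54.1, 56.4 and 55.4 CPM in untreated DKO MEFs, 17.7, 17.1 and 14.8 CPM in Null MEFs after etoposide and 10.1, 7.72 and 8.13 CPM in DKO MEFs after etoposide. Untreated DKO libraries stood far above all others, and treated DKO libraries overlapped with untreated Null ones. It rose by 0.81 on the log2 scale in Null MEFs (SE 0.094) and fell by 2.70 in DKO MEFs (SE 0.090), and the interaction was -3.50 (SE 0.13, edgeR quasi-likelihood test, adjusted p = 6.73e-13). Its window at chr4:63215162-63215461, on the plus strand, is shown because of this pattern, with capitals as above.
Col27a1: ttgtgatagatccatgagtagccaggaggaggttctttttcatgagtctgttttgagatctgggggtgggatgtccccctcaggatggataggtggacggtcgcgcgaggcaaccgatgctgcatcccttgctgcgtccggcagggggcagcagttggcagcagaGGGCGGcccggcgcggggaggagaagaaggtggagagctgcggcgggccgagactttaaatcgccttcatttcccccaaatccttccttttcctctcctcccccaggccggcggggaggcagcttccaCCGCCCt

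**Figure D3:**
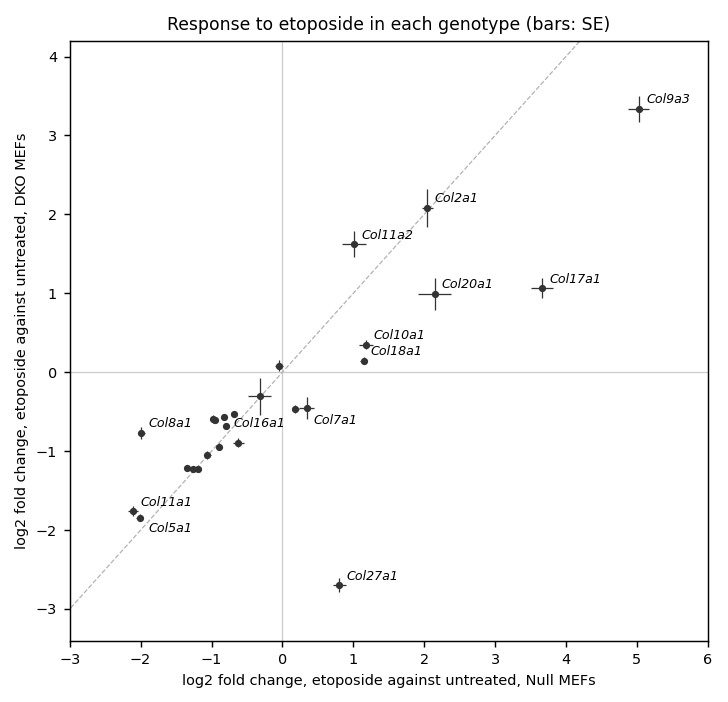
Each point is 1 of the 26 collagen genes, with the log2 fold change of etoposide against untreated in Null MEFs on the x axis and in DKO MEFs on the y axis; bars are SE and the dashed line marks equal change. Col27a1 lies at 0.81 and -2.70, and Col9a3 at 5.03 and 3.34.

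Of the FACIT collagens, which attach to fibril surfaces, 9 of the 10 listed were in the table and 6 were tested; Col21a1 was not among the table's symbols. Col12a1, the most abundant, was at 258, 251 and 250.2 CPM in untreated Null MEFs, 933, 998 and 996 CPM in untreated DKO MEFs, 145, 134.5 and 129.5 CPM in Null MEFs after etoposide and 514, 508 and 502 CPM in DKO MEFs after etoposide. It had the same order of groups as Col3a1 and Col5a2, 1.95 higher in DKO MEFs on the log2 scale without etoposide and lower by 0.89 and 0.94 with etoposide in Null and DKO MEFs. Col16a1 was at 53.9, 53.5 and 57.8 CPM in untreated Null MEFs, 51.5, 54.5 and 51.3 CPM in untreated DKO MEFs, 66.0, 62.1 and 58.9 CPM in Null MEFs after etoposide and 40.1, 37.4 and 36.5 CPM in DKO MEFs after etoposide. The untreated groups overlapped, and its interaction was -0.65 (SE 0.071, edgeR quasi-likelihood test, adjusted p = 5.69e-07).

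Col9a3, which encodes a chain of collagen IX, had the largest rise with etoposide among the 26 in both genotypes. It was at 0.332, 0.277 and 0.402 CPM in untreated Null MEFs and 0.331, 0.565 and 0.386 CPM in untreated DKO MEFs, and at 11.2, 11.03 and 10.8 CPM in Null MEFs and 4.86, 4.37 and 4.42 CPM in DKO MEFs after etoposide. The untreated groups overlapped and the treated ones did not. The rise was 5.03 on the log2 scale in Null MEFs (SE 0.15, edgeR quasi-likelihood test, adjusted p = 2.98e-15) and 3.34 in DKO MEFs (SE 0.17, adjusted p = 5.6e-12), with an interaction of -1.69 (SE 0.31, adjusted p = 0.000198). Exons of Col9a3 overlap those of Tcfl5 on the other strand, a gene that stayed at or under 0.109 CPM in every library. Of its 2 partner chains, Col9a1 had 0, 6, 20 and 14 counts in all over the 3 libraries of each group, in the order untreated Null, untreated DKO, treated Null and treated DKO, and Col9a2 had 6, 131, 121 and 137, where Col9a3 had 71, 97, 2569 and 1005. Col20a1 rose by 2.15 on the log2 scale with etoposide in Null MEFs and by 0.99 in DKO MEFs, from means of 0.404 and 0.821 CPM.

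The 6 collagen IV genes lie in 3 head-to-head pairs. Col4a1 and Col4a2 start 21 bases apart on opposite strands, Col4a3 and Col4a4 start 72 bases apart, and Col4a5 and Col4a6 start 1309 bases apart. The windows of Col4a1, chr8:11312777-11313076 on the minus strand, and Col4a2, chr8:11312555-11312854 on the plus strand, overlap and are shown because the products join in the same trimer; capitals are as above.
Col4a1: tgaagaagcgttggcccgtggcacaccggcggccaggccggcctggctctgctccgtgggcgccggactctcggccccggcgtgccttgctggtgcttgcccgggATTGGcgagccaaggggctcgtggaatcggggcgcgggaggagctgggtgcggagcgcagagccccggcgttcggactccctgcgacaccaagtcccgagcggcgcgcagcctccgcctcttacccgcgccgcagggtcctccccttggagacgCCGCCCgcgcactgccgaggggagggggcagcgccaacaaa
Col4a2: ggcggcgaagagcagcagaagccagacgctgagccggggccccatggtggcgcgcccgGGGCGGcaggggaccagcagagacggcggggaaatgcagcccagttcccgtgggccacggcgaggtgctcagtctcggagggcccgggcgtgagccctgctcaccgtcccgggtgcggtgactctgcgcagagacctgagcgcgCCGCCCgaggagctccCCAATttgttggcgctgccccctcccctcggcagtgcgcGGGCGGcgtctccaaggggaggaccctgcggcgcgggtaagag
Col4a1 was at 113, 109 and 115 CPM in untreated Null MEFs, 189.6, 193 and 182 CPM in untreated DKO MEFs, 70.8, 69.6 and 69.1 CPM in Null MEFs after etoposide and 130.3, 124.5 and 135 CPM in DKO MEFs after etoposide. Col4a2 was at 66.8, 62.5 and 69.7 CPM in untreated Null MEFs, 178.5, 187 and 167.5 CPM in untreated DKO MEFs, 35.8, 33.8 and 31.5 CPM in Null MEFs after etoposide and 120, 118 and 115 CPM in DKO MEFs after etoposide. Both genes were in the same order of groups, but not in a fixed proportion. Per kb of exon, the ratio of Col4a2 to Col4a1 was 0.664 ± 0.0187 (SD, n = 3) and 0.544 ± 0.0284 in untreated and treated Null MEFs, and 1.06 ± 0.0307 and 1.02 ± 0.0534 in untreated and treated DKO MEFs. The fall with etoposide in Null MEFs was 0.69 on the log2 scale for Col4a1 and 0.98 for Col4a2, and the interaction was 0.38 for Col4a2 (SE 0.072, edgeR quasi-likelihood test, adjusted p = 0.000253). For Col4a1 it was 0.15 (adjusted p = 0.0181), a value that was 0.092 (adjusted p = 0.143) with DESeq2 size factors in edgeR, 0.10 (adjusted p = 0.0794) with the stricter filter and 0.12 (adjusted p = 0.0649) without the third treated DKO library.

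Col4a5, a basement membrane chain gene on the X chromosome, went against Col4a1 and Col4a2 between the genotypes. Col4a5 was at 94.2, 91.3 and 93.7 CPM in untreated Null MEFs, 68.9, 68.7 and 70.9 CPM in untreated DKO MEFs, 47.5, 48.0 and 49.0 CPM in Null MEFs after etoposide and 45.75, 44.2 and 47.0 CPM in DKO MEFs after etoposide. It was lower in DKO MEFs without etoposide by 0.42 on the log2 scale (SE 0.035, edgeR quasi-likelihood test, adjusted p = 8.15e-09) and fell with etoposide by 0.95 in Null MEFs and 0.60 in DKO MEFs. After etoposide its log2 fold change between the genotypes was -0.077 (adjusted p = 0.068), a value past the threshold at -0.14 with the stricter filter (edgeR, adjusted p = 0.00155), DESeq2 size factors in edgeR (adjusted p = 0.00282) or DESeq2 (adjusted p = 0.00108). It was also past it at -0.092 with library size alone (adjusted p = 0.0342), at -0.097 without the first treated DKO library (adjusted p = 0.0468) and at -0.11 without the third (adjusted p = 0.02). Its head-to-head partner Col4a6 had 197, 9, 321 and 128 counts in all over the 3 libraries of untreated Null, untreated DKO, treated Null and treated DKO MEFs. Col4a3 had 2, 344, 82 and 205 counts in the same order, so the ratio of untreated DKO to untreated Null MEFs was 167-fold with a counting interval of 45.8 to 1381. Col4a4, its partner, had 5, 25, 30 and 68 counts, of which 45 came from 1 treated DKO library.

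The main collagen VI chains, encoded by Col6a1, Col6a2 and Col6a3, were lower with etoposide in both genotypes and higher in DKO MEFs. Col6a1 was at 298, 279 and 305.5 CPM in untreated Null MEFs, 394, 404 and 389 CPM in untreated DKO MEFs, 169, 166 and 171 CPM in Null MEFs after etoposide and 256, 236 and 247.5 CPM in DKO MEFs after etoposide. Col6a2, 85161 bases away on the same strand, was at 133.5, 126 and 129 CPM in untreated Null MEFs, 170, 176 and 169 CPM in untreated DKO MEFs, 73.9, 71.0 and 75.6 CPM in Null MEFs after etoposide and 119, 119.7 and 111 CPM in DKO MEFs after etoposide. The order of the 4 groups was the same for both, without overlap. Per kb of exon, the ratio of Col6a1 to Col6a2 stayed between 4.03 and 4.38 over the 4 group means.

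Col6a3, which encodes the third chain of that trimer, was at 16.4, 15.5 and 17.9 CPM in untreated Null MEFs, 136, 155 and 153 CPM in untreated DKO MEFs, 11.8, 9.76 and 10.8 CPM in Null MEFs after etoposide and 81.0, 78.4 and 79.7 CPM in DKO MEFs after etoposide. Every DKO library was above every Null library. It was 3.16 higher in DKO MEFs on the log2 scale without etoposide (SE 0.066, edgeR quasi-likelihood test, adjusted p = 5.42e-17) and 2.89 higher after it (SE 0.068, adjusted p = 3.21e-16). Per kb of exon, the ratio of Col6a3 to Col6a1 was 0.0206 ± 0.000723 (SD, n = 3) in untreated Null MEFs and 0.137 ± 0.00920 in untreated DKO MEFs, and 0.0234 ± 0.00209 and 0.118 ± 0.00306 after etoposide.

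**Figure D4:**
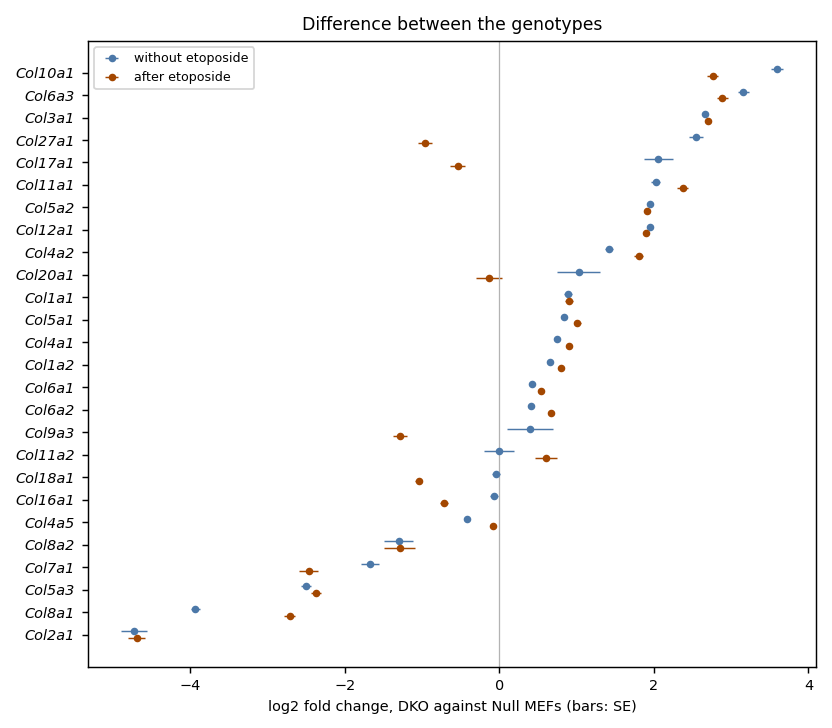
Points give the log2 fold change of DKO against Null MEFs for the 26 collagen genes, without etoposide in blue and after it in brown, with SE as bars. Col10a1 lies highest at 3.59 without etoposide and Col2a1 lowest at -4.73.

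The short-chain network collagens, which form lattices, differed between the genotypes in opposite directions. Col8a1 was at 112, 108 and 111 CPM in untreated Null MEFs, 7.55, 7.18 and 6.98 CPM in untreated DKO MEFs, 28.7, 27.1 and 27.75 CPM in Null MEFs after etoposide and 4.37, 4.78 and 3.74 CPM in DKO MEFs after etoposide. Every Null library was above every DKO library. It was lower in DKO MEFs by 3.93 on the log2 scale without etoposide (SE 0.060, edgeR quasi-likelihood test, adjusted p = 1.56e-18) and by 2.71 after it, and the interaction was 1.22 (SE 0.094, adjusted p = 7.58e-09). The window at its start, chr16:57754688-57754987 on the minus strand, is shown because of this difference, with capitals as above.
Col8a1: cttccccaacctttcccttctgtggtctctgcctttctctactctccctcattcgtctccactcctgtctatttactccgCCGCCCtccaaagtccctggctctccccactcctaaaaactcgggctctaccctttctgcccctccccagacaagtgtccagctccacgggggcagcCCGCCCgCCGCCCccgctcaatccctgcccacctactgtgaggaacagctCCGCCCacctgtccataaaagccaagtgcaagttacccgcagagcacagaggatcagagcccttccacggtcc
Col10a1 was at 2.62, 3.01 and 2.89 CPM in untreated Null MEFs, 35.0, 34.9 and 32.4 CPM in untreated DKO MEFs, 5.96, 6.02 and 7.35 CPM in Null MEFs after etoposide and 42.9, 43.4 and 44.1 CPM in DKO MEFs after etoposide. It was higher in every DKO library than in any Null library, by 3.59 on the log2 scale without etoposide (SE 0.080, edgeR quasi-likelihood test, adjusted p = 1.3e-16). Its exons overlap those of Nt5dc1 on the other strand, which was at 21.6, 25.7, 15.3 and 20.3 CPM in untreated Null, untreated DKO, treated Null and treated DKO MEFs; the strand setting of the counting is not given in the sources used here, so reads of the overlap cannot be assigned between them. Col8a2 was lower in DKO MEFs by 1.30 on the log2 scale without etoposide and 1.29 after it.

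Col18a1, a multiplexin gene of basement membranes, was at 57.7, 51.6 and 57.4 CPM in untreated Null MEFs, 52.0, 55.6 and 54.0 CPM in untreated DKO MEFs, 127, 118 and 125 CPM in Null MEFs after etoposide and 63.3, 58.1 and 58.1 CPM in DKO MEFs after etoposide. Treated Null libraries stood apart above the others. It rose by 1.15 on the log2 scale in Null MEFs (SE 0.049, edgeR quasi-likelihood test, adjusted p = 4.06e-13) and by 0.15 in DKO MEFs (adjusted p = 0.0128), with an interaction of -0.9985 (SE 0.070, adjusted p = 1.91e-09). The smaller rise in DKO MEFs was 0.094 (adjusted p = 0.146) without the first untreated DKO library, 0.090 (adjusted p = 0.13) without the first treated DKO library and 0.11 (adjusted p = 0.069) with no filter. Col15a1, the other multiplexin, had 14, 0, 91 and 33 counts over the 3 libraries of untreated Null, untreated DKO, treated Null and treated DKO MEFs. With the untreated DKO group put at the floor of 3 counts, it was 10.7-fold higher after etoposide in DKO MEFs. The counting error of the treated counts is not in this value.

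Col17a1, which encodes a transmembrane collagen of hemidesmosomes in epithelia, was at 0.455, 0.784 and 0.695 CPM in untreated Null MEFs, 2.62, 2.58 and 2.73 CPM in untreated DKO MEFs, 8.96, 7.47 and 7.61 CPM in Null MEFs after etoposide and 5.38, 5.76 and 5.401 CPM in DKO MEFs after etoposide. The order of the genotypes turned with the treatment: DKO MEFs were higher without etoposide by 2.06 on the log2 scale (SE 0.19, edgeR quasi-likelihood test, adjusted p = 3.44e-08) and lower after it by 0.54 (SE 0.10, adjusted p = 0.000103). The 7 epithelial markers, led by Krt19, summed to 16.3, 36.6, 25.1 and 16.1 CPM in the 4 groups (untreated Null and DKO, then treated Null and DKO), with Epcam at 0.366, 0.0382, 0.405 and 0.2475 CPM. Krt19 made up most of the sum and the list did not move as one: in Null MEFs Cdh1 was at 0.590, 0.338 and 0.4015 CPM without etoposide and 0.976, 1.15 and 0.948 CPM after it, Krt5 at or under 0.0123 CPM and then at 0.671, 0.859 and 0.860 CPM, and Krt14 at 0 and then at 0.3295, 0.545 and 0.554 CPM. Krt8 was at 1.29, 1.43 and 1.76 CPM and then at 0.793, 0.896 and 0.919 CPM. The part of these markers in the Col17a1 result was not tested. Col23a1 had 9, 16, 256 and 111 counts in the same order of groups, Col25a1 9, 0, 56 and 28, and Col13a1 0, 0, 16 and 16.

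Col7a1, the gene of anchoring fibrils, was at 27.4, 29.2 and 33.4 CPM in untreated Null MEFs, 8.15, 9.79 and 10.2 CPM in untreated DKO MEFs, 42.6, 39.7 and 31.2 CPM in Null MEFs after etoposide and 8.15, 6.17 and 6.59 CPM in DKO MEFs after etoposide. Treated and untreated libraries overlapped within each genotype. It was lower in DKO MEFs by 1.68 on the log2 scale without etoposide (SE 0.12, edgeR quasi-likelihood test, adjusted p = 8.65e-10) and by 2.47 after it (SE 0.12, adjusted p = 5.05e-12). Its log2 fold change with etoposide was 0.34 in Null MEFs (adjusted p = 0.00624), which became 0.24 (adjusted p = 0.0541) without the first treated Null library, and -0.45 in DKO MEFs (adjusted p = 0.00717), which became -0.18 (adjusted p = 0.245) with library size alone. Col26a1 had 0, 0, 41 and 69 counts over the 3 libraries of each group. With each untreated group put at the floor of 3 counts, it was 12.4-fold higher after etoposide in Null MEFs and 22.5-fold in DKO MEFs. The counting error of the treated counts is not in these values.

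The 18 collagen genes with a mean under 1 CPM, 4 of them not tested, are described by their counts. Summed over the 18 genes they had 129, 101 and 148 counts in the untreated Null libraries, 204, 236 and 129 in the untreated DKO libraries, 545, 618 and 406 in the treated Null libraries and 256, 425 and 535 in the treated DKO libraries. At or under 3 counts over the 3 libraries were 8 of the 18 genes in untreated Null MEFs, 9 in untreated DKO MEFs and 0 in either treated group. Not all were low without etoposide: Col4a3 had 344 and Col9a2 131 counts over the untreated DKO libraries, and Col4a6 had 197 and Col6a4 102 over the untreated Null libraries. A gene with few counts in untreated MEFs could pass the filter through the treated groups, so no count of calls or median is given for these genes apart. The counts over the 40 tested genes include their calls, and those over the 26 do not. A lean to higher values at low levels was not particular to collagen genes. Of all genes tested, 6435 were higher and 5656 lower with etoposide in Null MEFs, of which 4353 and 5501 averaged 1 CPM or more. In DKO MEFs 6645 were higher and 4790 lower, of which 4814 and 4635 averaged 1 CPM or more. Intervals cover counting error only, and floors cover that of the group without counts alone.

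The interaction of genotype and etoposide was past the threshold for 10 collagen genes upward and 12 downward, where 29.6% of all genes tested were past it upward and 24.4% downward. Among the 26 it was 9 each way (34.6%), beside 35.7% upward and 28.7% downward of all genes of that abundance; it was 5 upward and 9 downward with DESeq2 size factors and 12 and 8 with library size alone. Upward means that the log2 fold change with etoposide was higher in DKO than in Null MEFs. The upward count lay between 5 and 14 over the alternatives that kept all libraries. With DESeq2 size factors in edgeR, 6 were upward, the calls of Col1a2, Col4a1, Col5a1 and Col11a2 being lost, and with library size alone 14, those of Col3a1, Col5a3, Col6a1 and Col6a4 being gained. The median interaction of all genes was 0.047 on the log2 scale, -0.016 with DESeq2 size factors and 0.15 with library size alone, and the share of upward among all calls was 54.8, 47.5 and 65.2%.

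Across the 26 genes, the Spearman rho between the genomic span of a gene and its log2 fold change with etoposide was -0.50 in Null MEFs and -0.53 in DKO MEFs. Across 11552 genes with a known span that averaged 1 CPM or more it was -0.29 and -0.28. Genes are not independent replicates, and the part of span in the collagen values was not tested.

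The genes that modify, process, bind and regulate collagen were taken from 5 lists. Their counts stand beside shares of all genes tested of 42.3% higher and 37.2% lower with etoposide in Null MEFs, 43.7 and 31.5% in DKO MEFs, 33.3 and 33.4% between the untreated genotypes and 37.5 and 36.6% between the treated ones. Over genes averaging 1 CPM or more these shares were 36.3 and 45.85%, 40.1 and 38.6%, 39.5 and 36.2%, and 45.5 and 34.8%. Of the 20 genes for folding and modification in the endoplasmic reticulum, 5 were higher and 13 lower with etoposide in Null MEFs, with a median log2 fold change of -0.24, and 3 higher and 11 lower in DKO MEFs, with a median of -0.15, where the medians of all genes tested were 0.066 and 0.14. The direction in DKO MEFs turned with the scaling: with library size alone 10 were higher and 6 lower, with a median of 0.13, and in Null MEFs 8 and 10, with a median of -0.071. Without etoposide 14 of the 20 were higher in DKO MEFs and 3 lower, and after it 15 and 3. The 20 take in Colgalt2, at or under 0.0123 CPM in every untreated library, which could pass the filter only through the treated groups. Serpinh1, the collagen chaperone HSP47 (chosen for mention after its values were seen), was at 1641, 1629 and 1648 CPM in untreated Null MEFs, 2705, 2687 and 2611 CPM in untreated DKO MEFs, 1095, 1105 and 1166 CPM in Null MEFs after etoposide and 1810, 1814 and 1855 CPM in DKO MEFs after etoposide. It was in the same order of groups as Col1a1, except that treated DKO libraries stood above untreated Null ones. Plod2, a lysyl hydroxylase of collagen telopeptides, went the other way in Null MEFs, from 71.0, 66.4 and 61.5 CPM to 150.2, 145 and 145 CPM, a rise of 1.15 on the log2 scale (SE 0.044, edgeR quasi-likelihood test, adjusted p = 9.2e-14), while in DKO MEFs its log2 fold change was 0.054 (adjusted p = 0.269), or 0.33 (adjusted p = 3.42e-06) with library size alone, and its interaction -1.09 (adjusted p = 1.39e-10). P3h2, a prolyl 3-hydroxylase, was higher in DKO MEFs by 2.18 and P4ha3, a subunit of prolyl 4-hydroxylase, lower by 1.51 on the log2 scale without etoposide.

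**Figure D5:**
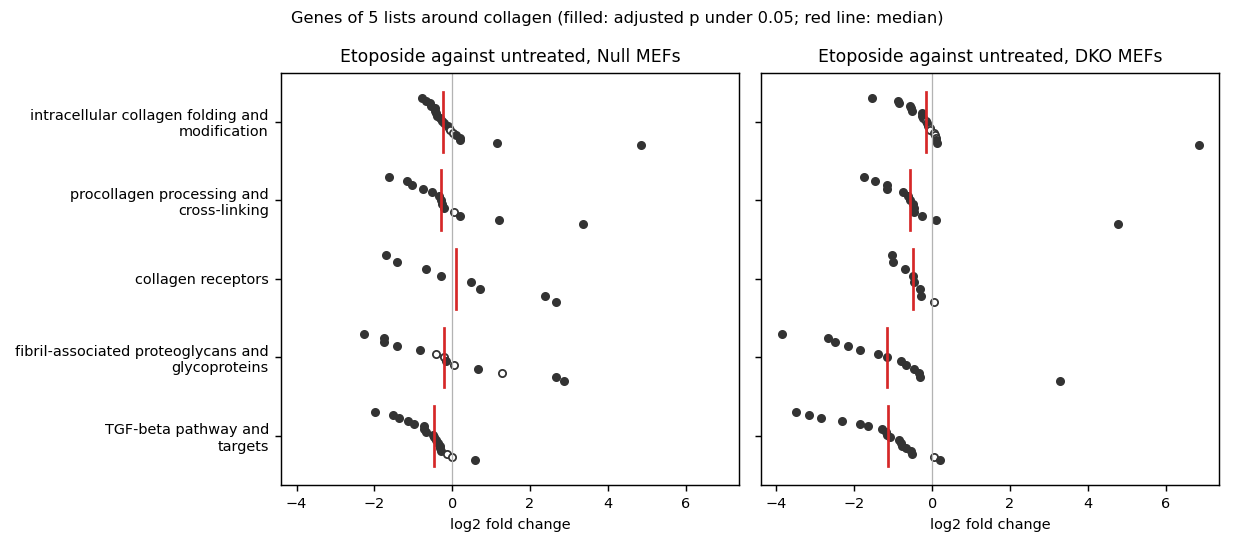
Each point is 1 tested gene of 5 lists, with its log2 fold change of etoposide against untreated in Null MEFs (left) and DKO MEFs (right); filled points have an adjusted p under 0.05 and red lines mark medians. The medians of the TGF-beta list lie at -0.47 and -1.13; the points furthest right in the upper lists, Colgalt2 and Tll2, had few counts without etoposide, and their fitted values are no measured fold.

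Of the 13 genes for procollagen processing and cross-linking, 3 were higher and 9 lower with etoposide in Null MEFs and 2 higher and 11 lower in DKO MEFs, and 9 were higher and 2 lower in DKO than in Null MEFs without etoposide and 8 and 3 after it. With library size alone these counts were 4 and 7, 2 and 10, 8 and 3, and 7 and 3. The 13 take in Tll2, at or under 0.0309 CPM in every untreated library, which could pass the filter only through treated libraries. Tll1, a protease of the procollagen C-propeptide family, was at 16.4, 16.6 and 17.9 CPM in untreated Null MEFs and 253, 267 and 260.1 CPM in untreated DKO MEFs, 3.94 higher on the log2 scale (SE 0.047, edgeR quasi-likelihood test, adjusted p = 1.15e-19). Loxl2, a lysyl oxidase homologue, was at 97.2, 96.5 and 93.7 CPM in untreated Null MEFs and 11.6, 10.5 and 11.3 CPM in untreated DKO MEFs, 3.11 lower (adjusted p = 1.61e-18). In both genes the groups were far apart. Bmp1, the procollagen C-proteinase, had log2 fold changes with etoposide of 0.20 in Null MEFs and -0.25 in DKO MEFs, the latter turning to 0.021 (adjusted p = 0.59) with library size alone.

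Of the 8 collagen receptors, 4 were higher and 4 lower with etoposide in Null MEFs, and 0 higher and 7 lower in DKO MEFs. With library size alone the counts in DKO MEFs were 1 and 5. In untreated DKO MEFs 4 stood higher than in Null MEFs and 3 lower, or 3 and 4 with library size alone, and after etoposide 2 and 5. Itga2, which encodes an integrin subunit that binds collagen, was at 2.69, 1.84 and 2.32 CPM in untreated Null MEFs, 15.4, 15.02 and 16.0 CPM in untreated DKO MEFs, 14.2, 15.8 and 13.7 CPM in Null MEFs after etoposide and 13.4, 12.2 and 11.8 CPM in DKO MEFs after etoposide. Untreated Null libraries alone stood low, and the interaction was -2.98 on the log2 scale (SE 0.14, edgeR quasi-likelihood test, adjusted p = 8.57e-12). Ddr2, a receptor tyrosine kinase for fibrillar collagen, fell by 1.70 with etoposide in Null MEFs and by 0.71 in DKO MEFs. Itga11 was lower in DKO MEFs without etoposide by 1.65.

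Of the 14 fibril-associated proteoglycans and glycoproteins, 13 were tested, of which 3 were higher and 6 lower with etoposide in Null MEFs and 1 higher and 12 lower in DKO MEFs. With library size alone these counts were 3 and 5 in Null MEFs and 1 and 8 in DKO MEFs. Between the untreated groups 12 of the 13 were higher in DKO MEFs and 1 lower, with a median log2 fold change of 2.34, and between the treated groups 10 and 1, with a median of 1.25. Thbs1, which encodes thrombospondin-1, was at 2778, 2689 and 2564 CPM in untreated Null MEFs, 21090, 22490 and 21770 CPM in untreated DKO MEFs, 556, 585 and 524 CPM in Null MEFs after etoposide and 1574, 1463 and 1484 CPM in DKO MEFs after etoposide. Untreated DKO libraries were far above the others, and etoposide lowered it by 2.27 on the log2 scale in Null MEFs and 3.85 in DKO MEFs. Thbs2 was higher in untreated DKO than untreated Null MEFs by 4.15 on the log2 scale, and its interaction was -4.07. Tnxb, the tenascin X gene, rose with etoposide in Null MEFs by 2.88 and was lower in untreated DKO than untreated Null MEFs by 2.63, or 3.38 without the first untreated DKO library.

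The TGF-beta pathway is a known inducer of collagen genes. Of the 18 genes of its list, 1 was higher and 15 lower with etoposide in Null MEFs, with a median log2 fold change of -0.47, and 1 higher and 16 lower in DKO MEFs, with a median of -1.13. Without etoposide 15 were higher and 1 lower in DKO than in Null MEFs, but after it 7 were higher and 8 lower, with a median of 0.058, or -0.0017 with DESeq2 size factors. Smad3, which encodes a transducer of TGF-beta signals, was at 177, 175 and 182 CPM in untreated Null MEFs, 241, 244 and 251 CPM in untreated DKO MEFs, 46.2, 44.0 and 44.6 CPM in Null MEFs after etoposide and 35.6, 32.9 and 33.1 CPM in DKO MEFs after etoposide. The order of the genotypes turned with the treatment: 0.46 higher in DKO MEFs on the log2 scale without etoposide and 0.41 lower after it. Ltbp2, which encodes a latent TGF-beta binding family protein, was 2.52 higher in untreated DKO than untreated Null MEFs, Tgfbr2, a receptor, 0.41 lower, and Tgfbr1 rose by 0.59 with etoposide in Null MEFs.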

How the data were processed

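RNA-Seq of 12 MEF libraries was used. The authors trimmed reads where required, aligned pairs with HISAT2 and deposited raw counts per gene; the paper names HTSeq and the submitters' processing notes featureCounts and mm10. Lines for reads on no gene were left out: 53.4 to 63.1% of pairs were on genes, 20.2 to 27.3% on no feature and 15.9 to 20.5% not unique.

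From the deposited counts, filterByExpr (minimum count 10) left 15220 genes, TMM factors set the scale and glmQLFit with glmQLFTest were run in edgeR 4.0.16 under R 4.3.3, in a single model of 4 groups, with Benjamini-Hochberg adjustment over all genes tested and a threshold of 0.05. SE values were derived from the F statistic. Libraries within a group varied beyond counting error, with chi-square divided by its degrees of freedom at 10.7 to 22.0. Lengths, spans and overlaps came from GENCODE M21 on GRCm38 and promoter sequences from RefSeq.

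Named genes were, by rule, Tfeb and Tfe3; the 2 most abundant tested genes of each collagen class; neighbouring pairs; in each comparison the 3 largest rises and falls that were called and averaged 1 CPM or more; and the largest rise and fall of each other list in 2 comparisons. The neighbouring pairs taken were those of collagen IV, Col6a1 with Col6a2, and Col3a1 with Col5a2. Col9a1 with Col19a1, and Col6a4, Col6a5 and Col6a6, are neighbours too and were not taken. Col1a2, Col6a4, Col8a2, Col9a1, Col9a2, Col13a1, Col14a1, Col24a1, Col25a1, Serpinh1, Colgalt2, Tll2 and all cell type markers but the most abundant of each list lie outside this rule and were named after their values were seen. Members and lists were chosen with earlier results of these data known. The fits were tested on simulated data. Alternatives were DESeq2 1.42.0, limma-trend (limma 3.58.1), other scalings and filters, robust dispersions, a replicate block, the 6 libraries of a comparison and each library left out; a legacy quasi-likelihood fit was added after seeing the data.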

Additional observations from a re-analysis of the deposited data

Results flagged for a closer look

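The test of the interaction of genotype and etoposide was past the threshold for 22 collagen genes, 25% of the 40 tested upward and 30% downward. Of all genes tested 29.6% were past it upward and 24.4% downward, so the count by itself sets collagen genes little apart. The 22 are genes whose log2 fold change with etoposide differed between DKO and Null MEFs. No explanation was tested. The interaction was -3.50 for Col27a1, -2.60 for Col17a1, -1.69 for Col9a3, -1.15 for Col20a1, -0.9985 for Col18a1, -0.83 for Col10a1, -0.79 for Col7a1, -0.65 for Col16a1 and -0.27 for Col6a3. It was 1.22 for Col8a1, 0.61 for Col11a2, 0.38 for Col4a2, 0.35 for Col4a5, 0.35 for Col11a1, 0.26 for Col6a2, 0.17 for Col5a1, 0.15 for Col4a1 and 0.14 for Col1a2. Col4a3 and Col4a6 had fitted values of -5.77 and 3.19, which rest on 2 counts in untreated Null MEFs for Col4a3 and 9 counts in untreated DKO MEFs for Col4a6. Col9a2 and Col14a1 had fitted values of -4.08 and -3.35, which rest on 6 and 2 counts in untreated Null MEFs. Leaving out 1 library at a time, in 12 fits with edgeR, ended the call of Col11a2 in 10 (adjusted p = 0.0575 to 0.121), all but those without the first treated Null or the second treated DKO library, and that of Col14a1 in 8 (adjusted p = 0.0545 to 0.144). It ended the call of Col5a1 in 6: without the third untreated Null, the first or the third untreated DKO, the second treated Null or the first or the second treated DKO library, with values of 0.13 to 0.16 (adjusted p = 0.0586 to 0.121). Col6a3 lost its call in 3, at -0.24 to -0.20 (adjusted p = 0.0507 to 0.0826), without the second untreated Null, the third untreated DKO or the first treated Null library, and had -0.17 (adjusted p = 0.145) with library size alone. Col1a2 lost it in 3, at 0.12 (adjusted p = 0.0522 to 0.0536), without the first untreated DKO or the first or the second treated DKO library, and Col4a1 in 1, at 0.12 (adjusted p = 0.0649), without the third treated DKO library.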

How the results depend on the processing

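No tested collagen gene reversed: of 3311 log2 fold changes recomputed, 3156 stayed on the same side of the threshold, 109 lost it and 46 gained it. The stricter filter tested the 26 genes alone, and counts were then 10 higher with etoposide in Null MEFs, 7 higher in DKO MEFs and 6 lower in untreated DKO MEFs, as among the 26, but 11 lower in treated DKO MEFs against 10 (Col4a5 gained). Upward interactions fell to 5: Col4a6 was not tested, and Col1a2 (0.093), Col4a1 (0.10), Col5a1 (0.12) and Col11a2 (0.56) were tested and lost their calls. That count was 6 with DESeq2 size factors and 14 with library size alone; the cause of these changes was not tested. Leaving out each library gave 21 to 25 and 14 to 14 (Null, higher and lower), 18 to 20 and 18 to 19 (DKO), 18 to 19 and 8 to 9 (genotypes without etoposide), 15 to 18 and 13 to 16 (after it) and 7 to 11 and 10 to 12 (interaction). The only named gene to reverse was Bmp1 with etoposide in DKO MEFs, 0.021 with library size alone.

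Replicate numbers gave no clear pairing of the libraries. Deviations of same-numbered libraries correlated at -0.03 to 0.04, and those of differently numbered ones at -0.046 to 0.028. Between the treated genotypes the same-numbered values, 0.016 to 0.024, were all above the others, at most 0.0022. Values so small cannot settle whether the libraries were paired. With the replicate block 15 collagen genes were lower in treated DKO than treated Null MEFs (Col25a1 lost) and 11 interactions were upward (Col6a4 gained); the block changed no other call of a collagen gene.

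With the longest transcript as length, ratios moved to 0.789, 0.931, 0.965 and 1.04 (Col1a1 to Col1a2), 0.603, 0.968, 0.495 and 0.930 (Col4a2 to Col4a1), 2.72, 2.76, 2.75 and 2.54 (Col6a1 to Col6a2) and 0.0228, 0.152, 0.0259 and 0.131 (Col6a3 to Col6a1), for untreated Null, untreated DKO, treated Null and treated DKO MEFs. Genes with few counts are limited by depth: 0 counts in a group allow up to 3.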
